A study of Bos taurus with 8 samples.

Results

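The chromatin remodellers of the SWI/SNF (BAF) and CHD families were followed in bovine embryonic stem cells (bESCs) cultured in 5% O2 on a feeder layer and after transfer to feeder-free (FF) culture. Members were all rows of the count file with a symbol of the SMARCA to SMARCE series, of an ARID gene that carries a number and a letter from A to C, of CHD with 1 digit, or PBRM1, DPF1 to DPF3, BRD7 or BRD9, which gave 37 of the 32637 genes with values. Lines A, C, D and E, all labelled XX and derived independently from early or full blastocysts produced in vitro, were each sequenced once on MEF (irradiated mouse embryonic fibroblasts) and once in FF on vitronectin, for a total of 8 libraries. Sequencing was done at passage 15 to 17 on MEF and at passage 20 to 22 in FF, so the effects of passage and of the matrix cannot be told apart. The medium held FGF2 and IWR-1, a WNT pathway inhibitor; Activin A was added for FF according to the methods, but the titles of all libraries carry 1 medium name, NBFRA. The comparison asks whether the transcripts of these remodellers differed between the feeder layer and feeder-free culture in low oxygen.

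Remodellers use ATP to slide, eject or exchange nucleosomes. BAF complexes are built around one of a pair of ATPases, SMARCA4 or SMARCA2. Their core is drawn from SMARCB1, SMARCC, SMARCD and SMARCE1 proteins, not all of which are in every form. The complexes exist in several forms: canonical BAF carries ARID1A or ARID1B with a DPF protein, PBAF carries PBRM1, ARID2 and BRD7, and the non-canonical form carries BRD9. Mouse embryonic stem cells are known for a BAF form with SMARCA4 and SMARCC1 and little SMARCA2 or SMARCC2. SMARCA1 and SMARCA5 are the ATPases of the ISWI family, which space nucleosomes. CHD proteins combine chromodomains with the same kind of ATPase: CHD1 acts with transcribing polymerase, CHD3, CHD4 and CHD5 belong to the NuRD deacetylase complex, and CHD6 to CHD9 form a further class that includes CHD7 and CHD8, genes of neurodevelopmental disorders. The rule also takes in ARID3, ARID4 and ARID5 proteins, which share a DNA-binding domain with ARID1A but are no BAF subunits.

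Total counts per library ranged from 44268717 to 54296425 on MEF; those in FF reached from 49671478 to 51320214 in lines A, C and E, and 102351560 in line D. Of 5 markers of pluripotent cells, all were present in every library, at a sum of 3338 to 3802 CPM (counts of a gene relative to the TMM-scaled total of its library, the unit of all levels given here) on MEF and 2914 to 3033 CPM in FF. All 5 were lower in FF by the fitted log2 difference, with a median of -0.35. In the paired fit SOX2, SALL4 and LIN28B were lower at an adjusted P-value under 0.05, as were 8.12% of all genes. SALL4 also passed in the unpaired edgeR fit, at -0.58 (adjusted p = 0.0426), short of a 1.5-fold change, where 1.18% of all genes passed as lower. The 12 fibroblast markers summed to 518 to 617 CPM on MEF and 287 to 1312 CPM in FF, and their differences had both signs, the median of the 11 tested being 0.49 on the log2 scale. TWIST2 was listed at 0 in all 4 FF libraries and COL1A2 was lower in 4 of 4 lines, whereas COL3A1 and PDGFRB were higher in 4 of 4. In the paired fit COL1A2 fell and COL3A1 and POSTN rose. The 6 neural markers summed to 275 to 462 CPM and 269 to 479 CPM, and of these DCX fell, by 1.39 on the log2 scale, a call kept in 1 of 12 fits with a library or line left out. In bulk libraries a smaller number of cells of a type and less RNA per cell cannot be told apart, and the part of other cells in the results below was not tested.

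None of the remodellers changed in feeder-free bESCs by the thresholds of the study's methods, which ask for an adjusted P-value (Benjamini-Hochberg) under 0.05 together with a 1.5-fold change. Of the 15744 genes tested 1.73% passed them, 0.724% as higher and 1% as lower. At the adjusted P-value alone the members passing were also 0, against 0.749% of all genes higher and 1.18% lower. The quasi-likelihood test of edgeR covered 36 of the 37 members, and DPF3, a BAF subunit of muscle and nerve, did not pass the filter on low counts, with 0 to 14 counts per library. On the same thresholds DESeq2 called 1 member, ARID5B, as higher, against 4.41% of all genes, and limma-voom 0. By adjusted P-value alone other unpaired settings did pass members: DESeq2 passed ARID1B, CHD6, CHD7, SMARCC1 and ARID5B, against 12% of all genes in either direction, the likelihood ratio test of edgeR passed ARID1B and CHD6, against 6.5%, and a filter of at least 10 counts in every library passed ARID1B, against 3.5%. At an unadjusted P-value under 0.05 there were 7 members lower, among 11.4% of all genes tested, and 1 higher, among 10.2% of all genes. The log2 fold change (FF minus MEF) was below 0 for 27 of 36 members, or 75%, against 49.4% of all genes. Its median was -0.12 against 0.01 over all genes tested, and the members ranged from -0.54 for CHD7 to 1.22 for ARID5B. The members' median was lowest in line D, at -0.18, followed by -0.14 in A, -0.08 in C and -0.05 in E. There were 14 members lower in 4 of 4 lines, or 38.9% of those tested, against 20.7% of all genes, and 1 higher in 4 of 4 lines, against 20.2% of all genes. Groups did not overlap for ARID1B, CHD6, SMARCC1 and CHD9, each with all FF libraries below all MEF libraries, which is 11.1% of the members against 8.36% of all genes, and 0 members had all FF libraries above, against 6.21% of all genes. For 21 of the 36 members the 95% interval of the difference, taken gene by gene, lay within a 1.5-fold change in either direction. That is 58.3% of the members against 26.5% of all genes, and the remaining 15 intervals reached beyond it.

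**Figure D1:**
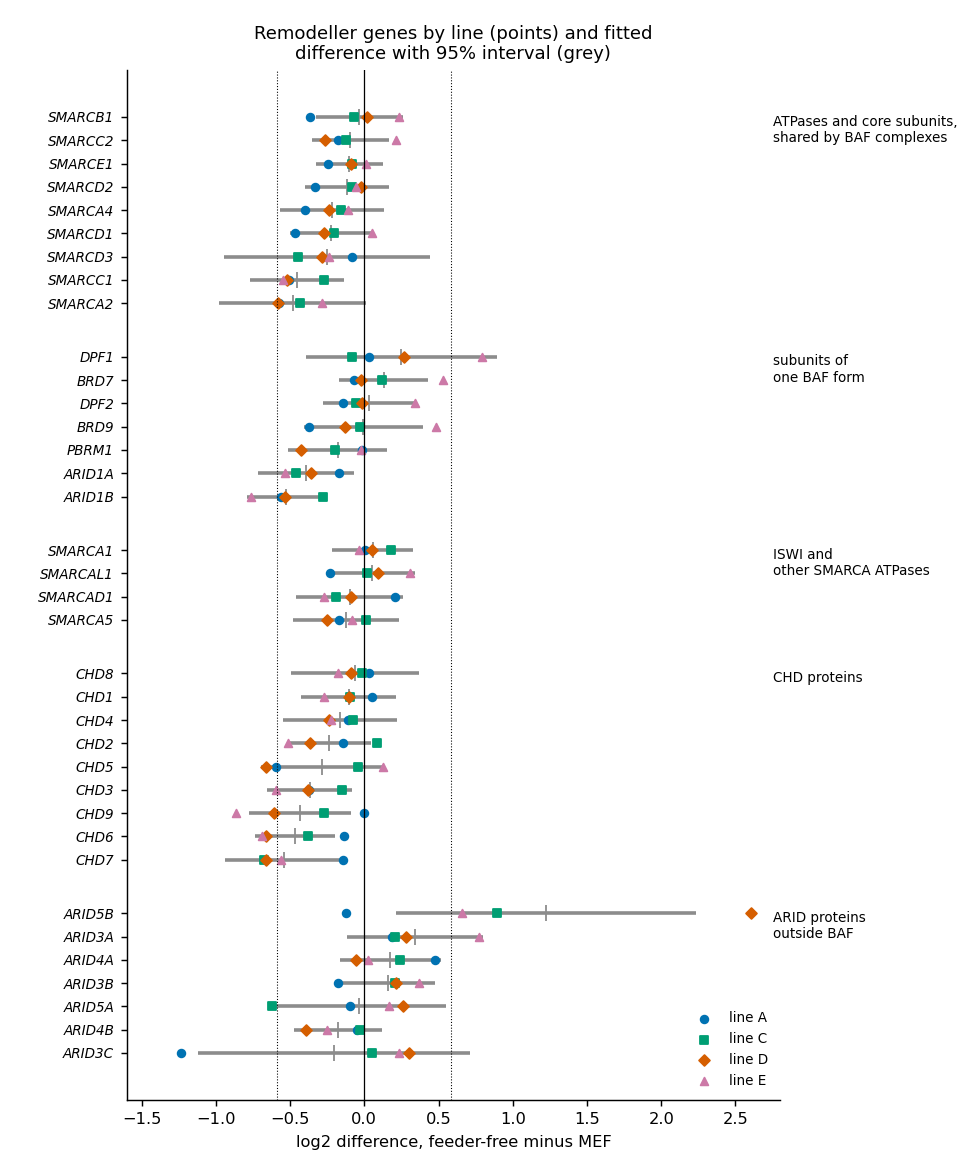
Log2 difference between feeder-free and MEF culture (x axis) for the 36 tested remodeller genes, grouped by role; coloured points are the 4 lines, grey ticks and bars are the fitted log2 fold change with its 95% interval, and dotted lines mark a 1.5-fold change. Most points of the BAF core and CHD genes lie left of 0, and ARID5B has the widest scatter, from -0.12 in line A to 2.61 in line D.

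Since each line gave a library in either condition, a paired fit (replicate block by line) was made beside the unpaired one. It called 0 members at both thresholds, against 5.52% of all genes higher and 4.53% lower. At the adjusted P-value alone it passed 6 members, all lower in FF: ARID1A, ARID1B, SMARCC1, CHD3, CHD6 and CHD7. These are 16.7% of the members, against 8.12% of all genes passing as lower and 7.67% as higher in the same fit. Their log2 fold changes in it lay between -0.53 for ARID1B and -0.38 for CHD3, short of the 1.5-fold threshold. Fits of 3 lines called fewer genes throughout. Without line D 0 members passed as lower, against 2.34% of all genes, and without line C only ARID1B did, against 3.27%. Without line E ARID1B and SMARCC1 passed as lower, against 5.39% of all genes. Without line A 6 members passed as lower, against 6.47%, with CHD9 in and CHD3 out, and ARID5B passed as higher, against 6.79%.

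The ATPases of BAF had lower mean levels in feeder-free bESCs, within the spread between lines. SMARCA4, the main catalytic subunit of BAF in embryonic stem cells, at 15424807 to 15515093 of chromosome 7 (ARS-UCD2.0, the build of all positions given here), had 372, 464, 461 and 369 CPM in lines A, C, D and E on MEF and 283, 416, 391 and 342 CPM in FF. It was lower in every line, but the groups overlapped, since the FF libraries of C and D lay above the MEF libraries of A and E. Its log2 fold change was -0.22 (standard error 0.16, 95% interval -0.57 to 0.13, edgeR adjusted p = 0.468). SMARCA2, the alternative ATPase, on chromosome 8 from 42369774 to 42549438, had 11.4, 6.79, 9.93 and 8.22 CPM on MEF and 7.64, 5.01, 6.63 and 6.75 CPM in FF. It too was lower in 4 of 4 lines, with a log2 fold change of -0.48 (standard error 0.22, interval -0.98 to 0.01, edgeR adjusted p = 0.245). A transfer RNA gene is annotated within its span.

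Among the core subunits, SMARCC1 was the one whose groups did not overlap. SMARCC1, the scaffold subunit typical of embryonic stem cell BAF, on chromosome 22 from 51958003 to 52083022, had 531, 632, 642 and 584 CPM in lines A, C, D and E on MEF and 374, 523, 446 and 399 CPM in FF. The highest FF library, that of line C, was below the lowest MEF library, that of line A. The log2 fold change was -0.45 (standard error 0.14, interval -0.77 to -0.14), with an adjusted p of 0.108 in the unpaired edgeR fit and 0.0168 in the paired one. Its paralogue SMARCC2 had 66.9 ± 7.48 CPM on MEF against 62.7 ± 3.76 CPM in FF (SD, n = 4 each), a log2 fold change of -0.09. SMARCB1, the subunit lost in rhabdoid tumours, on chromosome 17 from 71241939 to 71259044, had 176, 181, 178 and 173 CPM on MEF and 137, 173, 180.1 and 203 CPM in FF. The MEF libraries were nearly equal, whereas the FF libraries fell on both sides of them, line A lowest and line E highest. Its log2 fold change of -0.03 (standard error 0.13, interval -0.33 to 0.26, edgeR adjusted p = 0.925) turned to 0.065 without the FF library of line A.

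SMARCE1, the subunit with a high mobility group domain, had the narrowest spread of log2 CPM in FF, with 204 ± 5.41 CPM on MEF against 191 ± 10.4 CPM in FF (SD, n = 4 each). The SMARCD subunits, of which SMARCD3 is the form of heart and muscle, had log2 fold changes of -0.22 for SMARCD1, -0.12 for SMARCD2 and -0.25 for SMARCD3. SMARCD3 was at 1.75 to 4.26 CPM in the 8 libraries, and its interval, -0.95 to 0.44, was wide. All 9 ATPases and core subunits had log2 fold changes below 0, with a median of -0.22, and 5 of them were lower in 4 of 4 lines.

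The subunits that define single BAF forms divided between the ARID1 pair and the rest. ARID1B, the alternative to ARID1A in canonical BAF and a gene of intellectual disability, on chromosome 9 from 93404984 to 93845453, had 93.6, 95.2, 98.5 and 96.8 CPM in lines A, C, D and E on MEF and 63.4, 78.6, 67.9 and 57.1 CPM in FF. Every FF library was below every MEF library, and the MEF libraries differed little among themselves. The log2 fold change was -0.52 (standard error 0.12, interval -0.79 to -0.26), and -0.29 with a trend on gene span removed, with an adjusted p of 0.0534 in the unpaired edgeR fit, the smallest of any member, and 0.0158 in the paired one. ARID1A, a frequently mutated tumour suppressor, on chromosome 2 from 126408493 to 126477757, had 296, 418, 411 and 381 CPM on MEF and 263, 303, 320.1 and 263 CPM in FF. It was lower in every line, least in line A, whose MEF library was below the FF libraries of C and D. The log2 fold change was -0.39 (standard error 0.14), with an adjusted p of 0.157 in the unpaired edgeR fit and 0.0367 in the paired one. Both genes overlap other annotated loci of the bovine genome (a transfer RNA and an unnamed locus for ARID1B, an unnamed locus for ARID1A), and whether counting used strand is not given in the sources used here, which bears on the 15 of 37 members that overlap another annotated gene.

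The other form-specific subunits lay close to 0. PBRM1, the bromodomain subunit of PBAF, had 90.4 ± 17.1 CPM on MEF against 79.8 ± 6.77 CPM in FF (SD, n = 4 each), and BRD7 of the same form had 76.0 ± 11.2 CPM and 83.2 ± 6.64 CPM. BRD9 of the non-canonical form had 69.9 ± 12.2 CPM (SD, n = 4) and 69.7 ± 13.7 CPM (SD, n = 4). In BRD9 the lines moved apart, with a log2 difference of -0.37 in line A and 0.48 in line E. DPF2, the widely expressed DPF protein, had a log2 fold change of 0.03 with an interval of -0.28 to 0.33. DPF1, its neuronal paralogue, on chromosome 18 from 48026252 to 48039993, had 2.59, 3.89, 2.23 and 2.40 CPM on MEF and 2.65, 3.67, 2.70 and 4.19 CPM in FF, and the log2 fold change of 0.25 (interval -0.39 to 0.89) came mainly from line E, at 0.80.

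**Figure D2:**
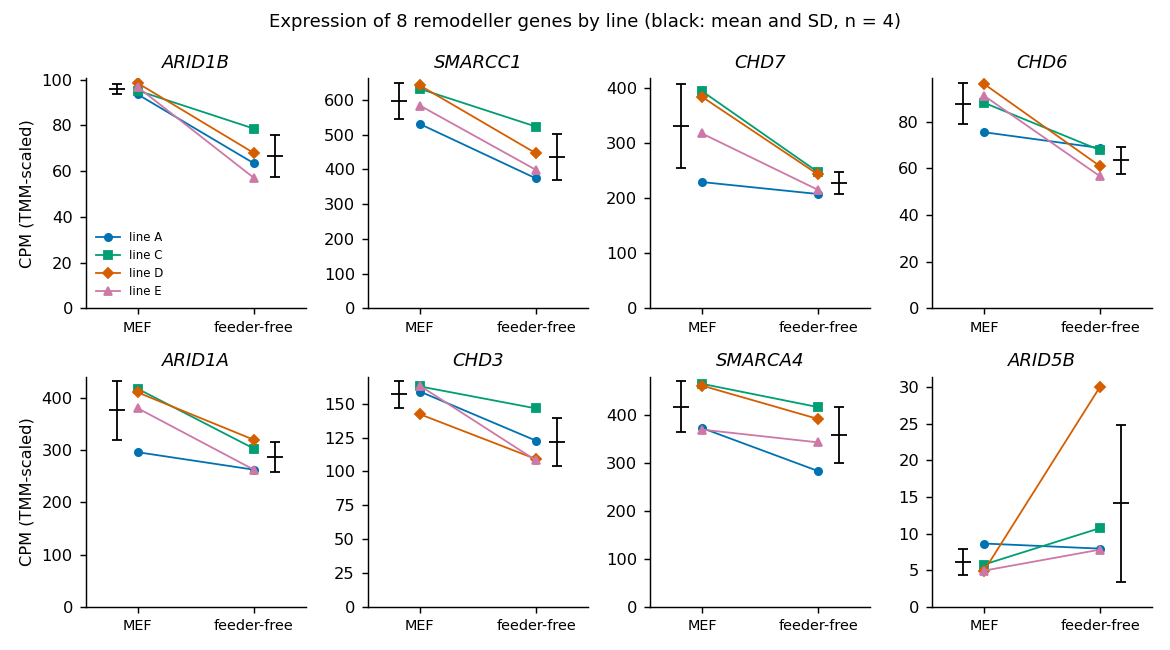
CPM (y axis, from 0) of 8 remodeller genes on MEF and in FF, with 1 coloured line per bESC line and black marks for the mean and SD of the 4 libraries. ARID1B, SMARCC1 and CHD6 show no overlap between conditions, SMARCA4 does, and ARID5B is set apart by the FF library of line D at 30.1 CPM.

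The 4 ISWI and related ATPases differed little. SMARCA5, which slides nucleosomes in ISWI complexes, had 636 ± 90.9 CPM on MEF against 585 ± 90.7 CPM in FF (SD, n = 4 each), and its X-linked paralogue SMARCA1 had 79.7 ± 5.53 CPM and 82.9 ± 10.9 CPM. SMARCAD1, a remodeller linked to heterochromatin upkeep, and SMARCAL1, which reanneals DNA at stalled replication forks, had log2 fold changes of -0.10 and 0.05. For all 4 the interval of the difference lay within 1.5-fold, and none was lower or higher in 4 of 4 lines.

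All 9 CHD genes had log2 fold changes below 0, with a median of -0.28 and 5 of them lower in 4 of 4 lines. CHD7, the remodeller mutated in CHARGE syndrome, on chromosome 14 from 26298002 to 26488620, had 229, 394, 384 and 318 CPM in lines A, C, D and E on MEF and 208, 247, 243 and 215 CPM in FF. The MEF libraries ranged widely and the feeder-free ones narrowly, and only the MEF library of line A lay within the feeder-free range. The log2 fold change was -0.54 (standard error 0.18, interval -0.94 to -0.14), with an adjusted p of 0.121 in the unpaired edgeR fit and 0.0208 in the paired one. Line A had the smallest difference, -0.14, and the others -0.67, -0.66 and -0.56 in C, D and E.

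CHD6, CHD9 and CHD3 were named after their values were seen. CHD6, of the same class as CHD7, on chromosome 13 from 70030877 to 70232258, had 75.5, 88.1, 96.2 and 91.1 CPM on MEF and 68.7, 67.8, 60.9 and 56.6 CPM in FF, with no overlap. Its log2 fold change was -0.47 (standard error 0.12), with an adjusted p of 0.0671 in the unpaired edgeR fit and 0.0337 in the paired one. CHD9 had 90.6, 98.5, 125 and 113 CPM on MEF and 90.5, 81.8, 82.1 and 62.0 CPM in FF, a log2 fold change of -0.43. The groups of CHD9 were separated by a very small margin in line A, and its adjusted p was 0.0701 in the paired edgeR fit. CHD3, a NuRD ATPase, on chromosome 19 from 27570581 to 27595691, had 159, 163, 142 and 163 CPM on MEF and 123, 147, 109 and 108 CPM in FF. It was lower in every line, with the FF library of line C above the MEF library of line D, at a log2 fold change of -0.37 (standard error 0.13) and an adjusted p of 0.138 in the unpaired edgeR fit and 0.0457 in the paired one.

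The remaining CHD genes were nearer to 0. CHD4, the main NuRD ATPase of proliferating cells, on chromosome 5 from 103812897 to 103847333, had 409, 579, 611 and 513 CPM on MEF and 379, 548, 517 and 439.5 CPM in FF. It was lower in every line by a small amount, and the spread between lines was larger than the difference, with a log2 fold change of -0.16 (standard error 0.17, interval -0.55 to 0.22, edgeR adjusted p = 0.636). CHD1, which keeps the chromatin of embryonic stem cells open, on chromosome 7 from 98079213 to 98154492, had 65.7, 87.1, 87.5 and 74.0 CPM on MEF and 68.1, 81.4, 81.4 and 61.4 CPM in FF, a log2 fold change of -0.10 (standard error 0.14, interval -0.42 to 0.22, edgeR adjusted p = 0.732). Its lines disagreed in sign, line A being higher and the others lower. CHD2, CHD5 and CHD8 had log2 fold changes of -0.24, -0.28 and -0.06, and CHD5, a NuRD ATPase of neurons, was at 7.69 to 12.2 CPM in the 8 libraries.

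The ARID proteins outside BAF held the members with the largest positive differences, the 7 genes having a median log2 fold change of 0.16. ARID5B, a partner of the histone demethylase PHF2, on chromosome 28 from 17916558 to 18109437, had 8.64, 5.77, 4.91 and 4.94 CPM in lines A, C, D and E on MEF and 7.95, 10.8, 30.1 and 7.81 CPM in FF. The FF library of line D stood far above all others, and line A was slightly lower than on MEF. The log2 fold change of 1.22 (standard error 0.45, edgeR adjusted p = 0.155) dropped to 0.54 without that library, with an adjusted p of 0.359 in the same test. In the paired fit it was 1.00, with an adjusted p of 0.0916 from edgeR. DESeq2 without pairing called ARID5B, with an adjusted p of 0.0407. That library also had the largest sum of fibroblast markers, 1312 CPM, of which COL1A1 made up 1033 CPM and FBLN1 167 CPM. Against MEF the markers had both signs in line D, with COL3A1 at 2.71 and COL1A2 at -4.47 on the log2 scale. Their part in the ARID5B value was not tested.

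ARID3A, a factor linked to early lineage choice, on chromosome 7 from 43465781 to 43501224, was the member higher in 4 of 4 lines, with 114, 145, 168 and 93.4 CPM on MEF and 129.9, 167, 205 and 159.7 CPM in FF. Its groups overlapped widely, and the log2 fold change of 0.34 (standard error 0.20, interval -0.11 to 0.80, edgeR adjusted p = 0.371) was largest in line E, at 0.77. ARID3B and ARID4A had log2 fold changes of 0.16 and 0.18, and ARID4B, which like ARID4A binds the SIN3 deacetylase complex, one of -0.18. ARID3C, at 0.581 to 1.42 CPM, and ARID5A, at 1.88 to 3.50 CPM, had intervals that reached beyond 1.5-fold on at least one side.

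Partners of these ATPases that the rule leaves out showed differences of both signs. Of 13 other BAF subunits tested, 0 passed both thresholds. BCL7A and BICRA passed the adjusted P-value alone, as 1.18% of all genes did as lower, with log2 fold changes of -0.58 and -0.54 and lower levels in 4 of 4 lines each, and each passed in 1 of 12 fits with a library or line left out. BICRA and its paralogue BICRAL are subunits of the non-canonical form, and BICRAL had a log2 fold change of -0.57 with an adjusted p of 0.014 in the paired edgeR fit. ARID2, the PBAF counterpart of ARID1A, had 84.8, 85.8, 93.0 and 78.3 CPM on MEF and 68.5, 69.0, 62.3 and 56.0 CPM in FF, without overlap, and an adjusted p of 0.0769 in the unpaired edgeR fit and 0.0293 in the paired one. At the adjusted P-value alone the paired fit passed 4 of these 13 subunits as lower and 3 as higher, against 8.12% and 7.67% of all genes. In the same fit 2 passed both thresholds as higher, against 5.52% of all genes, with log2 fold changes of 0.69 and 1.01. They were ACTB, the actin that is also part of the cytoskeleton, and BCL11A, a transcription factor found with BAF. ACTL6A, the actin-like subunit of BAF and INO80 in stem cells, was higher in every line without overlap, at a log2 fold change of 0.43 (adjusted p = 0.0884 in the unpaired edgeR fit and 0.0399 in the paired one).

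Of 12 NuRD partners, GATAD2B fell at both thresholds, as 1% of all genes did. GATAD2B, which bridges CHD4 to the deacetylase part of NuRD, on chromosome 3 from 16506940 to 16590831, had 58.6, 65.4, 74.8 and 79.5 CPM in lines A, C, D and E on MEF and 38.9, 41.8, 43.9 and 43.2 CPM in FF. No FF library reached the MEF range, and the log2 fold change was -0.73 (standard error 0.12, edgeR adjusted p = 0.0331). With a library or line left out it ran from -0.80 to -0.66, and it was called in 1 of 12 such fits, that without the FF library of line A (edgeR adjusted p of 0.037 to 0.217 over the 12). Its paralogue GATAD2A had a log2 fold change of 0.05. MTA3 had a log2 fold change of -0.55 and HDAC1, a catalytic deacetylase, one of 0.44, and both passed the adjusted P-value alone in the paired fit. In that fit 2 NuRD partners were lower and 1 higher, against 8.12% and 7.67% of all genes. Of 9 partners of ISWI ATPases 0 passed in the unpaired fit. BAZ2A, BPTF and CECR2 were lower at the adjusted P-value alone in the paired fit, against 8.12% of all genes. Their log2 fold changes in the paired fit were -0.46, -0.40 and -0.46.

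The balance between paralogues was read from the ratio of their counts within a library, a value that library scaling does not touch. Since the 2 genes of a pair differ in length, only the change of a ratio between conditions was read. None of the 9 ratios examined passed a two-sided exact permutation test over the 8 libraries after adjustment for the 9 pairs, and 2 reached 0.0286, the smallest p that 4 against 4 libraries allow, which became 0.129 after adjustment. The log2 ratio of SMARCC1 to SMARCC2 was 2.98, 3.12, 3.17 and 3.38 in lines A, C, D and E on MEF and 2.65, 2.97, 2.91 and 2.61 in FF, a mean difference of -0.37 with no overlap. The log2 ratio of CHD8 to CHD7 was -1.36, -1.55, -1.44 and -1.58 on MEF and -1.19, -0.89, -0.87 and -1.19 in FF, a mean difference of 0.45, also with no overlap. The log2 ratio of SMARCA4 to SMARCA2 was higher in 4 of 4 lines, by 0.18, 0.28, 0.35 and 0.18 in A, C, D and E, while on MEF alone it ran from 5.03 in A to 6.09 in C (exact permutation test without pairing, p = 0.514, n = 4 per condition). For ARID1A to ARID1B the mean difference was 0.15, and for SMARCA5 to SMARCA1 it was -0.17, lower in 4 of 4 lines (exact permutation test without pairing, p = 0.143, n = 4 per condition). The log2 ratios of CHD4 to CHD3 and of BRD7 to BRD9 were higher in 4 of 4 lines, by 0.21 and 0.15 in the mean. Paired by line, 6 of the 9 ratios had 1 sign in all lines and reached p = 0.125 in an exact sign-flip permutation test, the smallest that 4 lines allow, so that test could pass none.

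**Figure D3:**
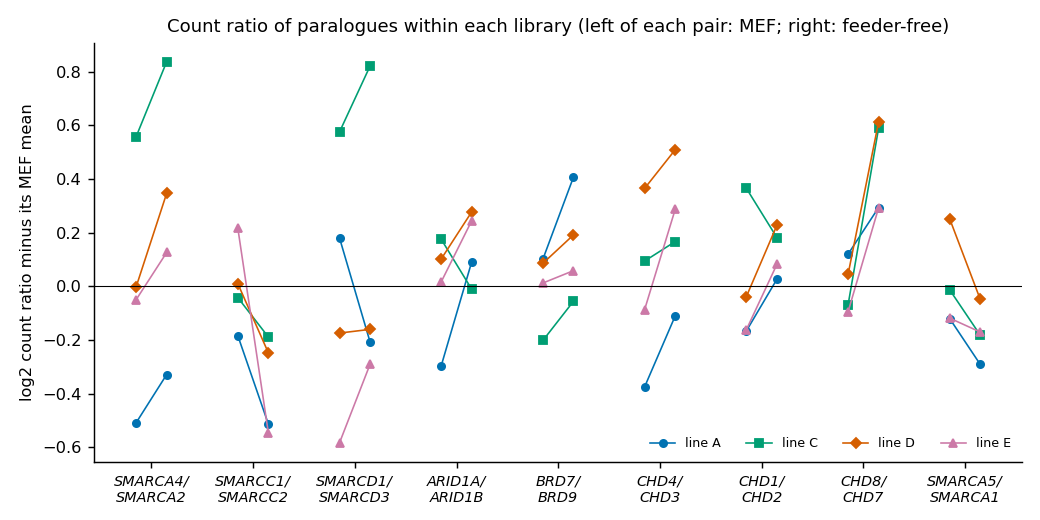
Log2 ratio of the counts of 2 paralogues within a library, minus the MEF mean of that ratio (y axis), for 9 pairs, with MEF at the left and feeder-free at the right of each pair and 1 coloured line per bESC line. SMARCC1/SMARCC2 moved down and CHD8/CHD7 up in all 4 lines with no overlap, whereas for SMARCA4/SMARCA2 the distance between lines is larger than the step within a line.

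Remodeller genes are long, and gene span moved with the fold change. Of the tested members 21 lay in the longest of 3 equal classes of gene span, with spans of 42.5 to 2536 kb, which is 58.3% of them against 33.2% of all genes. Over all genes tested the median log2 fold change was 0.10 in the shortest class, 0.01 in the middle class and -0.09 in the longest class. For the members it was -0.20 over 5 genes, -0.06 over 10 and -0.18 over 21. Across the 36 members the rank correlation of span with log2 fold change was -0.39, and across 15679 genes -0.16. Both are descriptions over genes, which share the same 8 libraries and are not independent. With a per-library trend on span removed, the paired fit passed CHD3 and SMARCC1 as lower at the adjusted P-value, against 7.17% of all genes. ARID1B moved most among the 6 members named above, from -0.53 to -0.30 in that fit (edgeR adjusted p = 0.0729), whereas ARID1A was at -0.32, CHD6 at -0.33 and CHD7 at -0.38. With the trend removed, 28 of 36 log2 fold changes were below 0 in place of 27.

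**Figure D4:**
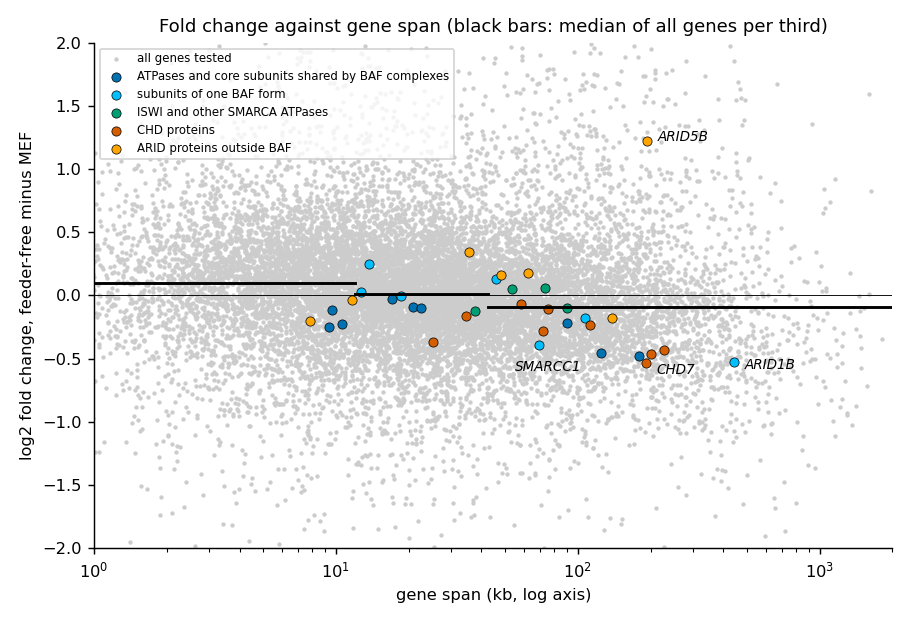
Log2 fold change, FF minus MEF (y axis, limited to -2 to 2), against gene span in kb on a log axis, for all genes tested (grey) and the remodellers (coloured by role); black bars are the median of all genes in each of the 3 span classes. Of the long genes, SMARCC1, CHD7 and ARID1B lie below the bar at -0.09, at -0.45 to -0.54, and ARID5B lies above it at 1.22.

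The remodellers also differed between lines within a condition. Their share of all counts was 0.430, 0.568, 0.583 and 0.479 percent in lines A, C, D and E on MEF and 0.395, 0.524, 0.486 and 0.443 percent in FF, lower in feeder-free culture in each line and lowest in line A in both conditions. Line A held the lowest level of 14 of the 36 members on MEF, where it did so for 24.2% of all genes, and of 19 in FF, where it did so for 33.1% of all genes. Line D had the highest level of 17 members on MEF, where it did so for 26.8% of all genes, and line C of 16 in FF, where it did so for 19.9%. The SD of log2 CPM between lines had a median over members of 0.19 on MEF and 0.21 in FF. Among the 36 tested members it was smallest for SMARCB1 on MEF, at 0.027, and largest for ARID5B in FF, at 0.91. Over all genes tested the deviations of a line's 2 libraries from their condition means correlated at 0.42 to 0.66. Over the 36 members alone those correlations were 0.67 in line C and -0.16, -0.10 and 0.10 in A, D and E, a description over genes that share libraries.

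**Figure D5:**
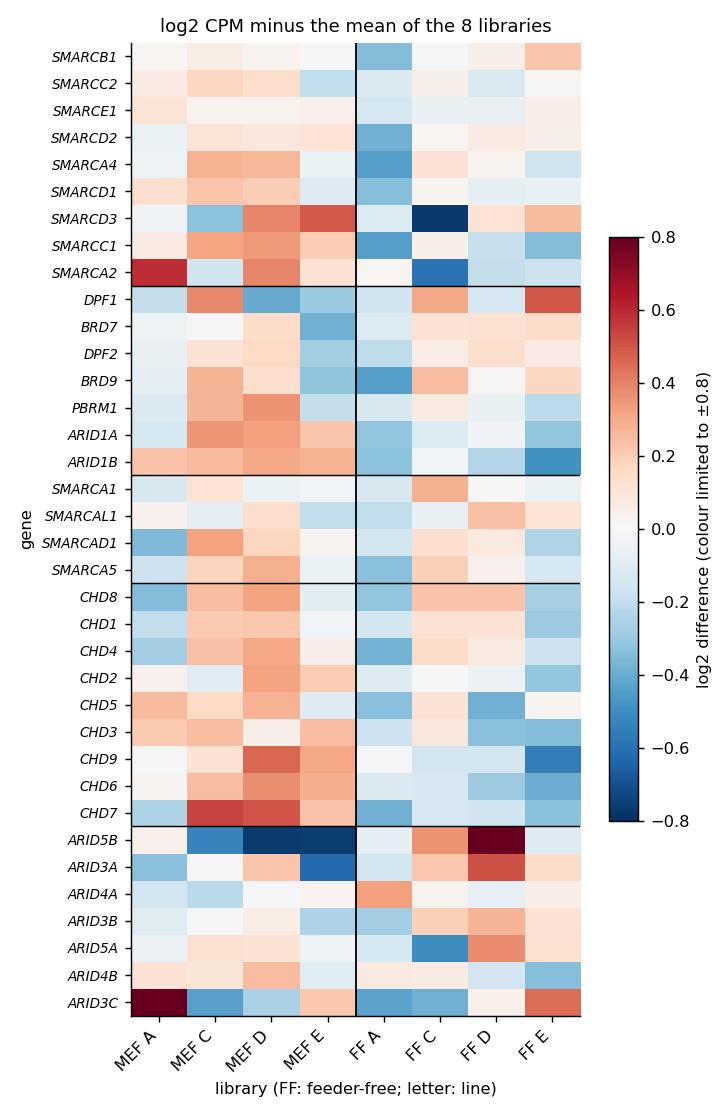
Log2 CPM of each tested remodeller gene minus its mean over the 8 libraries (colour, limited to ±0.8), with MEF libraries left and feeder-free (FF) libraries right of the black line, letters for bESC lines, and horizontal lines between the role groups. The BAF core and CHD rows are mostly red on MEF and blue in FF, and line A holds the lowest level of 14 members on MEF and 19 in FF.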

How the data were processed

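RNA was sequenced from 4 bESC lines in 2 conditions at 5% O2. The authors trimmed reads with Trimmomatic, aligned them to ARS-UCD2.0 with STAR, removed optical duplicates and low-quality alignments, and deposited raw counts per gene from featureCounts (Subread 1.6.2, per the labels). Per the methods, reads that a MEF-only library aligned to the bovine genome were also subtracted, a step meant for the cells grown on MEF. The paper does not say whether the deposited counts hold this step. Its part in the differences between conditions was not tested. Strand is not given in the sources used here. Of counts from 1 to 29, 68.4 to 74.1 percent per library were even, so mates of a pair may have been counted separately.

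Of 32640 listed genes 3 had no values. 0 columns were unused. No 2 libraries of a condition were identical (smallest chi-square per degree of freedom 43.7). Coordinates and spans came from RefSeq (ARS-UCD2.0), which matched 30270 genes and all 37 members; no sequences were used here.

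Differential expression used edgeR 4.0.16 in R 4.3.3 (filterByExpr, TMM, glmQLFit and glmQLFTest) on condition alone, with adjustment over 15744 genes. CPM used TMM-scaled library sizes; log2 CPM by line used a prior count of 2. Standard errors came from the F statistic and 95% intervals from its degrees of freedom. Paralogue ratios added 0.5 counts. Each line was cultured in both conditions, so line pairs the libraries. In the paired fit, line was a term. Fits were tested on simulated counts. P-values measure the spread between these lines, each 1 culture per condition.

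Named members were those called in either fit, the 3 largest log2 fold changes in each direction, and SMARCA4, SMARCA2, ARID1A, ARID1B, SMARCB1, SMARCC1, CHD1, CHD4 and CHD7. Further genes, including those outside the rule, were named after their values were seen. Alternatives were RLE or no scaling, other filters, the likelihood ratio test, DESeq2 1.42.0, limma-voom (limma 3.58.1), no fold threshold, a span offset, thinning of the largest library, and each library or line left out. Members and lists were chosen with earlier results of these data known.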

Additional observations from a re-analysis of the deposited data

Results flagged for a closer look

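Among 96 groups of 4 libraries examined, 6 held 1 library far from the other 3, a number for which chance gives about 4.8. Depth was 1 of them, with 102351560 total counts in FF for line D and 49671478 to 51320214 for the others. SMARCD2 was lowest in line A in both conditions, at 6.42 log2 CPM on MEF against 6.57 to 6.58 and at 6.09 in FF against 6.49 to 6.54. SMARCE1 was highest in line A on MEF, at 7.73 log2 CPM against 7.65 to 7.66. BRD7 was lowest in FF line A, at 6.20 log2 CPM against 6.42 to 6.45. The log2 ratio of SMARCD1 to SMARCD3 was highest in FF line C, at 5.25 against 4.14 to 4.27, where SMARCD3 was at 1.75 CPM.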

How the results depend on the processing

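Members called at both thresholds were counted in the unpaired settings, the paired fit (replicate block, line as a term) and that fit with the span offset. The count was 0 in each direction except in 2 of these settings. DESeq2 without pairing called 1 as higher, ARID5B, and the paired fit called 6 as lower once the fold threshold was dropped. Other paired settings were counted at the adjusted P-value alone. Leaving out any library or line in the unpaired fit gave 0 and 0. The median log2 fold change of the members was -0.12, and -0.18 to -0.072 with a library or line left out. SMARCB1, at -0.03, was the named member that changed sign, to 0.0080 without scaling and over a range of -0.12 to 0.065 with libraries or lines left out. The 6 members lower at the adjusted P-value alone in the paired fit, for which the alternatives were chosen after seeing the data, became 3 without scaling (against 6.59% of all genes), 2 with the span offset (7.17%) and 0 to 6 with a line left out (2.34% to 6.47%). RLE gave 5 (7.7%), thinning 6 (8.15%), limma-voom 6 (9.38%) and DESeq2 8 (11.4%). Members passing as higher were ARID5B with limma-voom (against 9.06% of all genes) and without line A (6.79%), and ARID3A and ARID5B with DESeq2 (12.3%). The count of paralogue ratios past the threshold was 0 with either pseudocount and 0 when paired by line. Tests of these ratios with a library left out were not run.

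Over all genes, 114 were higher and 158 lower. No scaling gave 91 lower, no filter 73 and 97, at least 10 counts in every library 199 higher, the likelihood ratio test 448 and 389, DESeq2 695 and 517, the replicate block 869 and 713, the block without a fold threshold 1207 and 1279, and the block with the span offset 833 and 642. With a library or line left out the counts ran from 0 to 259 higher and from 0 to 231 lower. The filters change how many genes are tested; elsewhere the cause was not tested. Depth limits DPF1, SMARCD3, ARID3C, ARID5A and the untested DPF3, whose mean levels were lowest.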

Other observations

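Remodellers of the INO80 family and its relatives were compared as well. Of 16 subunits of INO80, SRCAP and EP400 complexes, which exchange the histone variant H2A.Z, 0 passed both thresholds in the unpaired edgeR fit. In that fit 3 had an unadjusted P-value under 0.05, against 21.6% of all genes. EP400, the ATPase of the complex of that name, had 124, 157, 150.4 and 179 CPM in lines A, C, D and E on MEF and 112, 112, 94.5 and 95.2 CPM in FF. Its groups did not overlap, and the log2 fold change was -0.56 (standard error 0.14), with an adjusted p of 0.0616 in the unpaired edgeR fit and 0.0235 in the paired one. INO80C, a small subunit of INO80, was higher in 4 of 4 lines. In the paired fit it passed both thresholds at a log2 fold change of 0.71, as 5.52% of all genes did as higher. It overlaps an unnamed locus, and was at 7.68 to 21.1 CPM.

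Of 9 other helicases of the SNF2 kind, 0 passed both thresholds in either fit. In the unpaired fit 2 had an unadjusted P-value under 0.05, against 21.6% of all genes. ATRX, which deposits histone H3.3 with DAXX, had a log2 fold change of -0.39, and RAD54L, a recombination motor, one of -0.36. HELLS, which supports DNA methylation, was at -0.09. Over all 59 tested genes of the lists of partners and relatives, the median log2 fold change was 0.01, with 30 above 0 and 29 below.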
